A study of Mus musculus with 29 samples.

Results

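Acute colitis was compared with the state reached 2 weeks after the same single course of dextran sodium sulphate (DSS), a polymer that injures the colonic epithelium when given in drinking water. Members were chosen by label: the 4 arrays labelled acute colitis (replicates B2, B3, B4 and C3) and the 5 arrays labelled 1 cycle DSS (J1, J5, K1, K2 and K3), 9 of the 29 arrays used here. Acute colitis mice drank DSS for 7 days and were killed without recovery, whereas 1-cycle mice drank DSS for 7 days and then normal water for 2 weeks. The 5 control mice (A1, A2, A5, L1 and L2), shown as background, drank normal water throughout. All were female C57BL6J mice, with 6 weeks given as their age. The authors state this as the age at the start of the study, and the mice were older and matched in age when killed. Each array holds RNA from the colon of 1 mouse, taken from the most infiltrated piece. A further acute colitis array was not analysed here. Because whole tissue was measured, fewer cells of a type and less RNA per cell cannot be told apart.

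DSS strips the epithelial barrier and exposes the lamina propria to luminal bacteria. Neutrophils and monocytes enter first, drawn by CXC and CC chemokines, and release proteases and iron-binding proteins. Repair follows by re-epithelialization from the crypts, while adaptive immune cells, among them B cells and the plasma cells that secrete IgA, organise in the mucosa. In the healthy colon, absorptive colonocytes and mucus-secreting goblet cells line the crypts, and layers of smooth muscle surround them.

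Expression is given as log2 values made with RMA, a method that removes background, equalises the arrays and summarises the probes of each probe set, so that a difference of 1 is a 2-fold change. Differences were tested with limma, whose estimate of the spread for a probe set borrows from the others, after fitting the 6 groups of the study jointly. Calls needed an adjusted p (Benjamini-Hochberg, over every probe set of the array) under 0.05 together with a change of more than 2-fold. Array medians lay between 6.02 and 6.14, and the number of arrays limits the precision. Correlations across probe sets, whose points share the arrays, were 0.966 to 0.984 among acute arrays and 0.982 to 0.991 among 1-cycle arrays. One probe set, here called ATP6 and without a gene in the annotation, divides the arrays into a low and a high set: acute B2 and B3, all 1-cycle and all control arrays are low (7.10 to 8.14), and acute B4 and C3 are high (11.09 and 11.47). What sets these arrays apart is not stated in the labels.

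Of 35511 probe sets, 70 (0.197%) were higher and 177 (0.498%) were lower in acute colitis than after 1 cycle. The 70 carry the symbols of 59 genes, led by Lrg1, Cxcl10, Cxcl5, Mmp13, Il6 and Acod1, that is, by genes of the acute phase, chemokines, cytokines and matrix proteases. Of the 177, 29 are annotated as immunoglobulin chains and 39 have no gene listed, and the rest include genes of plasma cells, B cells, differentiated epithelium and smooth muscle. The 1-cycle colon was not that of controls: 309 probe sets (0.870%) were higher and 66 (0.186%) lower in it than in controls, beside 489 (1.38%) higher and 496 (1.40%) lower in acute colitis than in controls. These comparisons share arrays, so that their values are only set side by side below.

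**Figure D1:**
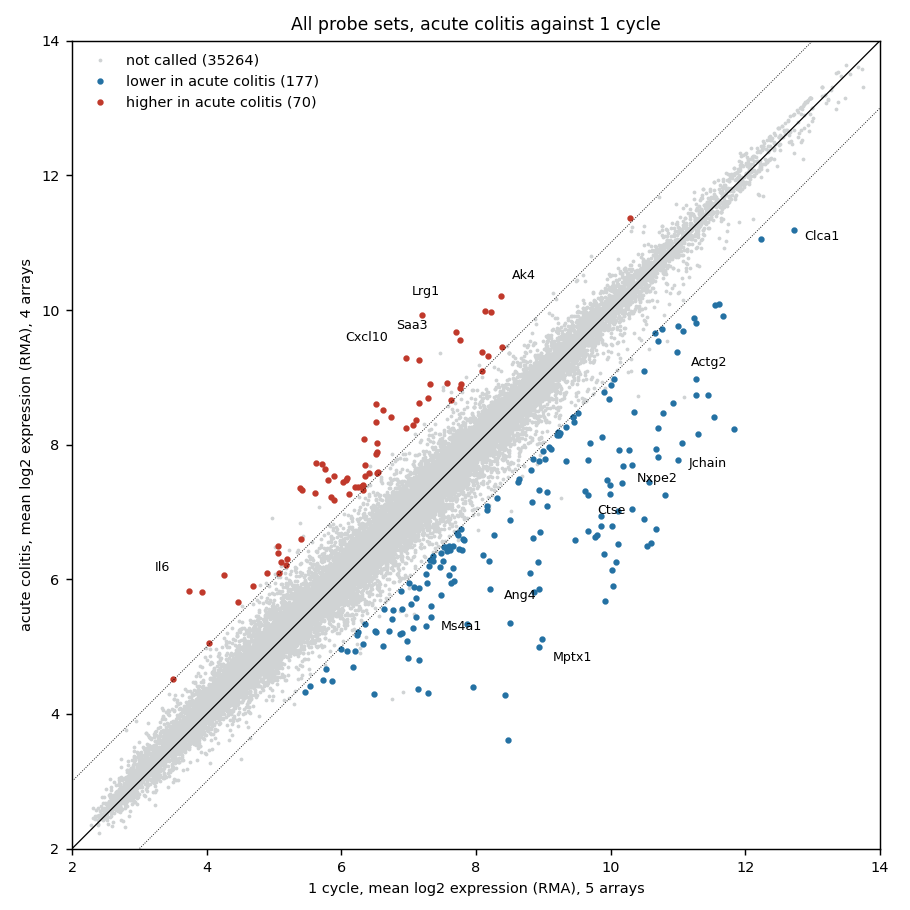
Mean log2 expression (RMA) of each probe set in acute colitis (4 arrays, vertical axis) and after 1 cycle (5 arrays, horizontal axis). The solid line marks equal levels and the dotted lines a 2-fold difference. The 70 red probe sets are higher and the 177 blue ones lower in acute colitis, and the blue ones reach farther from the line.

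The acute arrays differed far more among themselves in the induced genes than in the reduced ones. The median SD of the 70 higher probe sets was 1.22 in acute colitis and 0.239 after 1 cycle, whereas that of the 177 lower ones was 0.574 in acute colitis and 0.377 after 1 cycle. The joint fit takes 1 spread per probe set for all groups. Where acute arrays vary more, the SE and adjusted p given here may therefore be too small. Among the 4 acute arrays, B3 was the highest in 59 of the 70 and B2 the lowest in 60 of the 70. Acute and 1-cycle arrays did not overlap in 27 of the 70 higher and in 140 of the 177 lower probe sets. Over all 35511 probe sets, called or not, 1240 (3.49%) were higher and 799 (2.25%) lower without overlap. Without B3 the number higher was 29, without B2 it was 201, and in a fit of these 2 groups alone, whose spread comes from 9 arrays, it was 5. The number lower was 182 without B3, 257 without B2 and 102 in the fit of 2 groups. Within the low set of arrays, with 2 acute arrays left, 5 were higher and 68 lower.

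Of 16 measured acute-phase and iron-withholding genes, 4 were higher in acute colitis than after 1 cycle. Lrg1, a secreted glycoprotein of the acute phase, measured 8.27, 10.15, 10.44 and 10.84 in acute arrays B2, B3, B4 and C3, against 7.47, 7.53, 6.92, 7.32 and 6.73 in 1-cycle arrays J1, J5, K1, K2 and K3. All acute arrays lay above all 1-cycle arrays, and values below follow the same order of arrays. The Lrg1 level was 6.63-fold higher in acute colitis (log2 difference 2.73 ± 0.50, SE, adjusted p = 0.00166 by limma), and the call held in every alternative except within the low set of arrays (2.01, adjusted p = 0.0513). Saa3, a serum amyloid A made in inflamed tissue, measured 8.53, 11.49, 9.01 and 9.64 in acute colitis, against 7.60, 7.87, 7.50, 7.38 and 8.18 after 1 cycle (log2 difference 1.96 ± 0.52, adjusted p = 0.0246 by limma). Lcn2, which binds bacterial siderophores and so withholds iron, measured 8.97, 11.78, 9.52 and 9.64 in acute colitis, against 7.99, 8.28, 7.90, 7.57 and 8.93 after 1 cycle. The margin between acute B2 and 1-cycle K3 was small for Lcn2, and its call (1.84 ± 0.51, adjusted p = 0.0315 by limma) was lost in several alternatives, among them without B3 (1.24, adjusted p = 0.127). Hp, the haemoglobin-binding haptoglobin, averaged 7.86 ± 0.77 in acute colitis and 6.52 ± 0.24 after 1 cycle (SD, n = 4 and 5). These were the 4 members called, 0 were lower, and the list median was 0.50 beside 0.03 over all genes with 1 symbol, of which 58 were higher and 106 lower of 19938. Without B3, 1 of them was called, and without B2, 7. Against control, the list had 8 members higher in acute colitis and 6 higher after 1 cycle.

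Neutrophil genes were higher in part. Mmp8, the neutrophil collagenase, measured 4.58, 8.49, 5.21 and 5.99 in acute arrays, against 4.08, 4.45, 4.47, 4.26 and 3.99 in 1-cycle arrays, a 3.53-fold difference (1.82 ± 0.41, adjusted p = 0.00893 by limma). Retnlg, a resistin-like protein of neutrophils, measured 6.52, 9.69, 6.52 and 7.17 in acute colitis, against 5.78, 6.06, 6.00, 5.70 and 5.43 after 1 cycle. Both genes were above every 1-cycle array in all 4 acute arrays, with B3 alone above 8. Clec4e and Clec4d, C-type lectin receptors of myeloid cells, were higher by 1.92 ± 0.55 and 1.19 ± 0.31 (adjusted p = 0.0380 and 0.0209 by limma), and for Clec4e acute B2 (4.81) lay below all 1-cycle arrays (5.18 to 5.75). The calgranulin S100a8 had 5.45, 9.36, 6.40 and 7.10 in acute colitis, against 5.39, 5.82, 6.07, 5.61 and 5.41 after 1 cycle, and did not pass the test (1.42 ± 0.47, adjusted p = 0.0739 by limma). In all, 4 of 19 measured neutrophil genes were higher and 0 lower (median 0.97), 1 without B3 and 13 without B2. The mean of the list was 5.79 to 8.17 in acute arrays, 5.97 to 6.30 in 1-cycle arrays and 5.34 to 5.47 in controls, and acute B2 lay below every 1-cycle array.

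Of 21 monocyte and macrophage genes, 4 were higher and 0 lower in acute colitis than after 1 cycle (median 0.34), and 0 were called without B3. Chil3, a chitinase-like protein of activated macrophages and neutrophils, measured 4.58, 8.59, 5.19 and 4.91 in acute colitis, against 3.86, 4.22, 3.92, 3.83 and 3.85 after 1 cycle (1.88 ± 0.44, adjusted p = 0.0109 by limma). Without B3 its difference was 0.96, under the fold threshold. Ms4a6d (1.29), the IgG receptor Fcgr4 (1.17) and the integrin chain Itgam (1.05) were the others, and acute B2 lay among the 1-cycle arrays for Fcgr4 and Itgam and below them all for Ms4a6d. T and NK cell genes had 0 of 19 members called, with a median of 0.02, and 0 of 12 dendritic cell genes were called.

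Chemokines and cytokines that were higher in acute colitis differed widely between single acute mice. Cxcl10, which attracts T cells and is induced by interferon gamma, measured 7.03, 11.45, 9.95 and 8.72 in acute arrays, against 6.82, 7.28, 6.97, 7.51 and 6.18 in 1-cycle arrays, a 5.04-fold difference (2.33 ± 0.53, adjusted p = 0.00990 by limma). Cxcl5, a neutrophil attractant, measured 5.37, 9.46, 8.27 and 7.80 in acute colitis, against 5.45, 5.58, 6.02, 5.43 and 5.61 after 1 cycle (2.11 ± 0.58, adjusted p = 0.0322 by limma). For both, B3, B4 and C3 were above all 1-cycle arrays and B2 was not. The monocyte attractants Ccl2 (1.82), Ccl7 (1.36) and Ccl3 (1.64) were higher, and Ccl2 kept its call without B3 (1.07, adjusted p = 0.0273). Ccl6 ran the other way, with 10.29, 9.49, 8.77 and 9.60 in acute colitis against 10.60, 10.71, 10.73, 10.52 and 10.97 after 1 cycle (-1.17 ± 0.19, adjusted p = 0.000348 by limma), and no overlap. The Ccl6 call was lost without B4, in the fit of 2 groups and within the low set of arrays. Thus 2 of 11 CXC chemokines were higher (median 0.68), and of 16 CC chemokines 3 were higher and 1 lower (median 0.15). Without B3, 1 was called higher in each list, and without B2, 5 and 4.

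Il6, a cytokine that drives the acute-phase response, measured 3.74, 8.91, 5.75 and 4.91 in acute arrays, against 3.56, 3.84, 3.71, 3.70 and 3.85 in 1-cycle arrays (2.10 ± 0.51, adjusted p = 0.0155 by limma). The 1-cycle arrays were near the control mean of 3.55, and B2 lay within them. Il11, a cytokine of the same family that is made by stromal cells, measured 5.91, 8.81, 7.87 and 6.52 in acute colitis, against 5.44, 5.64, 5.49, 5.65 and 5.83 after 1 cycle (1.67 ± 0.34, adjusted p = 0.00389 by limma), with no overlap. The epithelial and stromal alarmin Il33 had 6.72, 8.64, 7.54 and 7.25 in acute colitis, against 6.66, 6.49, 6.40, 5.95 and 6.28 after 1 cycle (1.18 ± 0.28, adjusted p = 0.0133 by limma). The 1-cycle mean of Il33 (6.36) was that of controls (6.37). Il1a (1.97) and Tnf (1.08) completed the 5 of 18 inflammatory cytokines that were higher (median 0.45, 2 called without B3, 0 lower). Socs3, a feedback inhibitor of cytokine signalling, was higher by 1.35 ± 0.27 (adjusted p = 0.00374 by limma), and Il22ra2, which binds and neutralises interleukin 22, was lower by 1.10 on the log2 scale, with 4.59, 4.77, 4.96 and 4.37 in acute colitis against 5.92, 5.58, 6.07, 5.61 and 5.66 after 1 cycle. A second, dimmer probe set of Socs3 did not pass the test (0.24, adjusted p = 0.283).

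Of interferon-gamma-induced genes and enzymes of activated macrophages, Gbp5, Ido1 and Nos2 were above control in both groups and higher in acute colitis than after 1 cycle. Gbp5, a guanylate-binding protein, measured 6.10, 10.26, 8.37 and 7.60 in acute arrays, against 6.18, 6.43, 6.40, 6.47 and 6.17 in 1-cycle arrays (1.75 ± 0.45, adjusted p = 0.0195 by limma), beside a control mean of 4.96 ± 0.07 (SD, n = 5). Ido1, which degrades tryptophan, averaged 9.97 ± 0.85 in acute colitis and 8.22 ± 0.89 after 1 cycle, and 4.72 ± 0.24 in controls. Nos2, which makes nitric oxide, measured 7.58, 10.74, 10.20 and 9.68 in acute colitis, against 8.09, 7.76, 7.70, 8.17 and 7.07 after 1 cycle (1.79 ± 0.47, adjusted p = 0.0231 by limma). In each of the 3 genes acute B2 lay within or below the 1-cycle arrays. Acod1, which makes itaconate in macrophages, was higher by 2.09 ± 0.50 (adjusted p = 0.0134 by limma), and after 1 cycle it did not pass the test against control (1.00, adjusted p = 0.239). Ido1 and Acod1 were the 2 called of 10 tryptophan and itaconate genes, of which 4 differences were above 0 (median -0.18). Nos2 was the only 1 called of 16 genes of NADPH oxidases and nitric oxide (median 0.27). With the array sets as a covariate, 0 members of either list were called higher. Of 8 measured interferon-gamma-induced GTPases, 2 were higher in acute colitis than after 1 cycle (median 0.93), 0 without B3 and 7 without B2, while 8 were higher in acute colitis and 5 higher after 1 cycle than in controls. The antimicrobial lectins Reg3b and Reg3g stood far above control in both groups, with acute against 1-cycle differences of -0.11 (SE 0.84, adjusted p = 0.962) and 0.07 (SE 0.77, adjusted p = 0.975 by limma). Their acute arrays ranged from 6.55 to 12.89 and from 6.54 to 12.47, B4 being the low one in both, so that the size of any difference is poorly bounded.

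Matrix-degrading enzymes formed the list with the most induced members. Mmp13, a collagenase, measured 7.75, 11.27, 9.90 and 8.11 in acute arrays, against 6.71, 6.97, 7.39, 7.51 and 7.17 in 1-cycle arrays (2.11 ± 0.50, adjusted p = 0.0129 by limma). The groups did not overlap, yet the call was lost without B3 (1.44, adjusted p = 0.0526), without B4 and in the fit of 2 groups. Mmp3 (1.91), Mmp10 (1.46), Mmp8, the protease Adamts1 (1.12) and the inhibitor Timp1 (1.42) were also higher, which makes 6 of 18 higher and 0 lower (median 0.53), 1 without B3 and 8 without B2. Plaur, the urokinase receptor, averaged 7.33 ± 0.67 in acute colitis and 6.32 ± 0.21 after 1 cycle, with no overlap. It was the only 1 of 21 genes of matrix remodelling and TGF-beta called, and the call was lost without B3, B4 or J1. The fit of 2 groups, array weights and the low set lost it too. In that list 8 of 21 differences were above 0 (median -0.09), and 6 members were lower at an adjusted p under 0.05 with no fold threshold. Ereg, a ligand of the EGF receptor, measured 7.26, 9.94, 8.77 and 7.67 in acute colitis, against 6.36, 6.79, 7.02, 6.62 and 6.92 after 1 cycle (1.67 ± 0.31, adjusted p = 0.00172 by limma), and it kept its call without B3. Collagen genes had 0 of 19 members called and a median of -0.12, with 6 members lower at an adjusted p under 0.05 but less than 2-fold, Col12a1 (-0.67) the farthest. At that adjusted p with no fold threshold, 3.07% of all probe sets were higher and 2.67% lower.

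**Figure D2:**
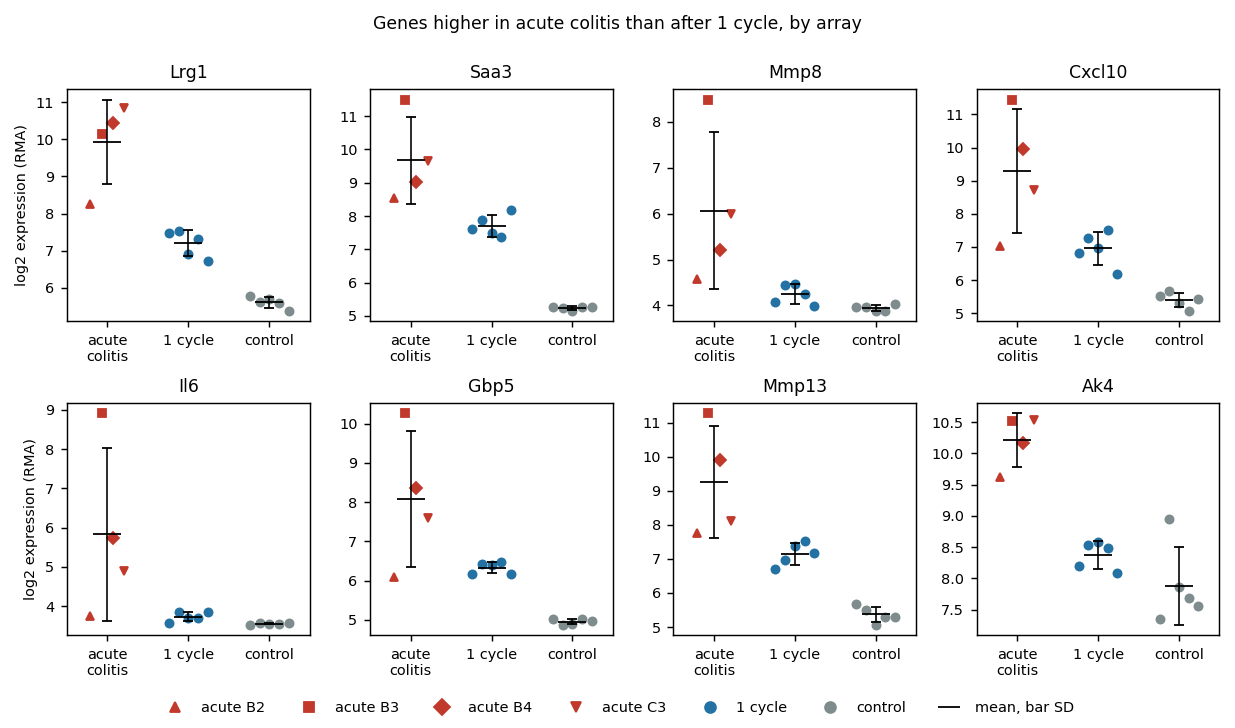
Log2 expression (RMA) of 8 genes that were higher in acute colitis than after 1 cycle, by array, with group means and SD bars (acute colitis n = 4, 1 cycle n = 5, control n = 5). Acute B3 (square) is the highest array except in the Lrg1 and Ak4 panels, acute B2 (upright triangle) is the lowest acute array in all 8, and in Cxcl10 and Il6 it lies among the 1-cycle arrays and in Gbp5 below them.

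Some rises were even among the acute mice. Ak4, a mitochondrial adenylate kinase induced by low oxygen, measured 9.63, 10.52, 10.16 and 10.54 in acute arrays, against 8.19, 8.53, 8.59, 8.48 and 8.09 in 1-cycle arrays, a 3.57-fold difference (1.84 ± 0.30, adjusted p = 0.000509 by limma), and its second probe set was also higher (1.22, adjusted p = 0.000730). Gda, a guanine deaminase, measured 8.83, 9.73, 9.25 and 9.46 in acute colitis, against 8.43, 8.16, 7.95, 8.27 and 8.07 after 1 cycle (1.14 ± 0.19, adjusted p = 0.000620 by limma). Both kept their calls in the fit of 2 groups and without any single array, and lost them within the low set (Ak4 1.69, adjusted p = 0.0677, and Gda 1.10, adjusted p = 0.0704). Mfsd2a, a transporter of lysophospholipids, had 8.74 to 10.02 in acute colitis and 7.75 to 8.54 after 1 cycle, and Trim15, a ubiquitin ligase of the TRIM family, 7.29 to 8.48 in acute colitis and 6.19 to 6.96 after 1 cycle. Slc51b, a subunit of the basolateral bile acid transporter of enterocytes, was higher by 1.07 ± 0.28 (adjusted p = 0.0241 by limma) but less even. Its acute array B4 (8.59) lay within the 1-cycle arrays (7.69 to 8.67). The call was lost without B2, B3, J1 or K1 and in the fit of 2 groups. Genes of glycolysis and the hypoxia response had 0 of 15 members past the 2-fold threshold, but all 15 differences were above 0 and 9 members passed the adjusted p (median 0.49), beside 11478 and 1489 (in either direction) of 19938 genes, among them the lactate exporter Slc16a3 (0.90, adjusted p = 0.00216), hexokinase Hk2 (0.87, adjusted p = 0.00239) and Pfkp (0.52, adjusted p = 7.75e-05 by limma). Cell cycle genes had all 24 differences above 0, with 7 members past the adjusted p and 0 past 2-fold (median 0.48). Rrm2, a subunit of ribonucleotide reductase, was the farthest (0.87, adjusted p = 0.00348).

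**Figure D3:**
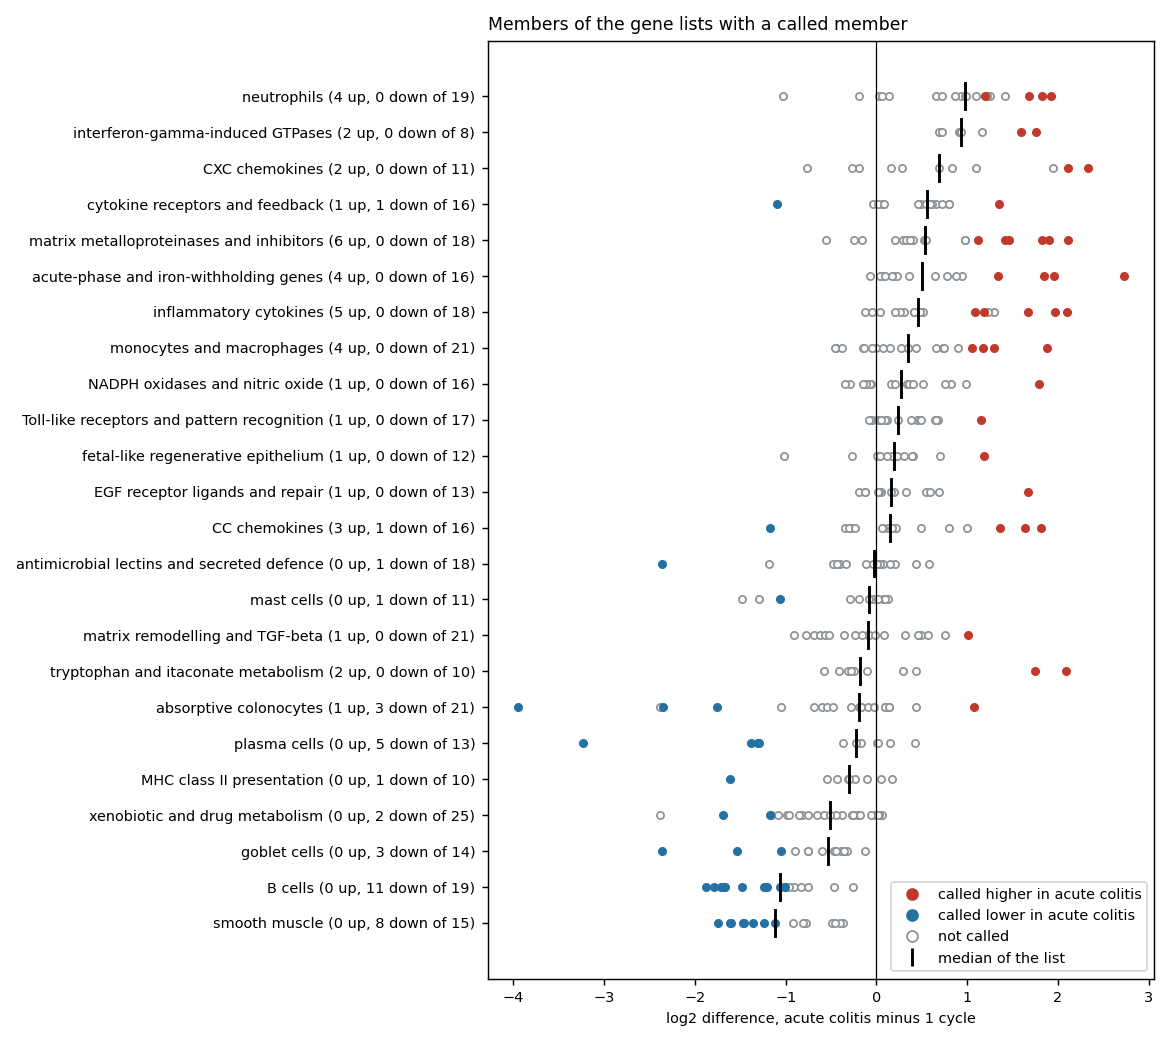
Log2 difference, acute colitis minus 1 cycle, of every measured member of the 24 gene lists in which at least 1 member was called (red higher, blue lower, open not called), with the median of each list as a black line. Called neutrophil, acute-phase, inflammatory cytokine and metalloproteinase genes lie on the right only, and B cells and smooth muscle have the lowest medians, -1.07 and -1.12.

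The upstream sequences of 3 induced genes and 1 smooth muscle gene are shown. They were picked from called genes whose stretch holds a match to a searched motif. Whether these motifs have a part in the differences was not tested. The sequences are those of RefSeq on build GRCm38.p6 and end at the base before the annotated start, and capitals mark motif matches. The kB motif, bound by NF-kB, and the GAS motif TTCNNNGAA, bound by STAT factors, were searched on both strands of the 250 upstream bases, and do not overlap each other here. In Il6 (chr5:30013014-30013113, plus strand) a kB match is found, in Gbp5 (chr3:142496834-142496933, plus strand) a kB match lies on the minus strand and a GAS match follows it, and in Socs3 (chr11:117969367-117969526, minus strand) a GAS match is found.
Il6: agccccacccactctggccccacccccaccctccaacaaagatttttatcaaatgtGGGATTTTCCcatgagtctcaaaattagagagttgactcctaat
Gbp5: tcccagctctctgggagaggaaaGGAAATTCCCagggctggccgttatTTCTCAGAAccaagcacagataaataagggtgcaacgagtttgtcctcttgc
Socs3: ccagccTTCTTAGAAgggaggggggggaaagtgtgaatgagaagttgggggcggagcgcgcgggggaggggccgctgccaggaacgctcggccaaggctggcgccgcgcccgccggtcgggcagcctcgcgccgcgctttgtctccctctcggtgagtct
Myl9, a regulatory myosin light chain (chr2:156775294-156775463, plus strand), holds a CArG box, the site of serum response factor:
Myl9: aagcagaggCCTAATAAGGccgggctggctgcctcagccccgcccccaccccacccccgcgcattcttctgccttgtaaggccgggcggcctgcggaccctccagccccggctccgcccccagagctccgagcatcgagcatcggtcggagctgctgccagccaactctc
Of the 59 genes called higher, 47 were in the RefSeq table, and 2 of these hold the kB motif and 7 the GAS motif, beside 1.65% and 8.13% of all 27025 genes (1.41% and 7.02% of their 32851 promoters). Of the 107 genes called lower, 68 were in the table, and 2 of these hold the kB motif, 4 the GAS motif and 4 a CArG box, the last beside 1.62% of all genes and 1.47% of promoters, and Myl9 is the only 1 of the 4 with a CArG box known for smooth muscle. The octamer ATGCAAAT was also searched, and 1 of the 47 higher and 0 of the 68 lower genes hold it, beside 1.81% of all genes. A match is a description of these letters and not a site in use.

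Of 13 plasma cell genes, 5 were lower in acute colitis than after 1 cycle and 0 higher. Jchain, which joins the units of IgA and IgM, measured 7.18, 8.60, 7.44 and 7.87 in acute arrays, against 10.98, 11.17, 11.13, 11.05 and 10.69 in 1-cycle arrays, 9.38-fold lower in acute colitis (-3.23 ± 0.24, adjusted p = 2.71e-09 by limma). Both groups differed from the control mean of 9.25 ± 0.40 (SD, n = 5), with acute colitis below it (-1.48) and 1 cycle above it (1.75). Mzb1, a chaperone of antibody assembly, measured 5.58, 5.64, 5.97 and 5.72 in acute colitis, against 7.20, 7.22, 7.20, 7.01 and 6.94 after 1 cycle (-1.39 ± 0.20, adjusted p = 9.66e-05 by limma). The transcription factor Irf4 measured 5.0, 5.26, 5.28 and 5.31 in acute colitis, against 6.42, 6.57, 6.76, 6.55 and 6.29 after 1 cycle (-1.31 ± 0.15, adjusted p = 5.81e-06 by limma). Derl3, of the degradation pathway of the endoplasmic reticulum, and Tnfrsf17, the survival receptor BCMA, fell by 1.31 and 1.29 on the log2 scale. None of the 5 genes overlapped between the groups, and 5 of 13 plasma cell genes were called lower with any array left out and within the low set of arrays (Jchain -3.11, adjusted p = 0.00109). Acute Mzb1, Irf4 and Derl3 were near control (differences of -0.16, -0.14 and -0.06). The median of the list was -0.22 between acute colitis and 1 cycle and -0.05 between acute colitis and control. Xbp1, a transcription factor of secretory cells in general, had a difference of -0.21 (adjusted p = 0.0699).

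Immunoglobulin chains gave the largest values. A probe set of Ighm, for the heavy chain of IgM, measured 4.65, 6.77, 5.50 and 5.79 in acute arrays, against 9.61, 10.75, 10.96, 8.41 and 9.88 in 1-cycle arrays (-4.24 ± 0.47, adjusted p = 2.14e-06 by limma), and both other probe sets of Ighm were also lower (-2.24 and -2.40). A pair of kappa chain variable segments followed (-3.93 ± 0.64, adjusted p = 0.000497, and -3.59 ± 0.39, adjusted p = 1.79e-06 by limma). Of 15 immunoglobulin probe sets with 1 symbol, 13 were lower and 0 higher (median -2.74), 4 were lower in acute colitis than in control and 11 were higher after 1 cycle than in control. Immunoglobulin segments are near-identical to each other, so that probes may read several of them and single segments are uncertain. Their mean was 5.57 to 7.03 in acute arrays, 8.70 to 9.20 in 1-cycle arrays and 6.41 to 7.59 in controls, with no overlap of acute and 1-cycle arrays. The single largest difference of all belonged to a probe set annotated as Adck1, with 3.35, 4.20, 3.78 and 3.10 in acute colitis against 8.62, 9.72, 7.37, 8.34 and 8.32 after 1 cycle (-4.87 ± 0.44, adjusted p = 1.37e-07 by limma). That probe set was also higher after 1 cycle than in control (3.70), as were 11 of the 15 immunoglobulin probe sets. The other probe set of Adck1, a mitochondrial kinase, measured 5.92 to 6.22 in acute colitis and 5.70 to 6.16 after 1 cycle (0.14, adjusted p = 0.404), so that no direction is given for this gene. By its symbol, Adck1 is still counted among the genes called lower and among those of them with a GAS motif.

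B cell genes were lower in acute colitis than after 1 cycle and near their control level. The list mean was 5.48 to 6.46 in acute arrays, 6.92 to 7.82 in 1-cycle arrays and 5.42 to 6.16 in controls. Ms4a1, the B cell surface antigen CD20, measured 4.86, 6.28, 5.74 and 4.90 in acute arrays, against 7.32, 7.26, 8.05, 6.94 and 7.06 in 1-cycle arrays (-1.88 ± 0.49, adjusted p = 0.0231 by limma), beside a control mean of 5.13 ± 0.47. Cd79a, a signalling chain of the B cell receptor, measured 4.36, 5.62, 6.48 and 4.64 in acute colitis, against 7.20, 6.83, 7.79, 7.14 and 6.34 after 1 cycle (-1.79 ± 0.45, adjusted p = 0.0174 by limma), with B4 above 1-cycle K3. Its partner Cd79b (-1.69), the complement receptor Cr2 (-1.71), the scaffold Bank1 (-1.72) and the low-affinity IgE receptor Fcer2a (-1.67) were also lower. In total 11 of 19 B cell genes were lower and 0 higher (median -1.07, with all 19 differences below 0), beside 0 called in acute colitis and 16 higher after 1 cycle against control. The count was 3 without C3, 3 without K1, 5 with the array sets as a covariate and 1 within the low set. H2-Ob, an MHC class II chain typical of B cells, measured 5.99, 7.26, 7.16 and 6.21 in acute colitis, against 8.32, 8.13, 8.90, 8.07 and 7.94 after 1 cycle (-1.62 ± 0.39, adjusted p = 0.0149 by limma). It was the only 1 of 10 measured class II presentation genes called. The H2-Ob call was lost without C3, with the array sets as a covariate and within the low set. Glycam1, of the lymph node type of vessel, had a difference of -1.20 (adjusted p = 0.112), and 0 of 10 genes of follicle organisation were called.

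Smooth muscle genes were lower in acute colitis throughout. Actg2, the enteric smooth muscle actin, measured 10.12, 9.42, 8.96 and 9.0 in acute arrays, against 11.04, 11.05, 11.09, 10.81 and 10.96 in 1-cycle arrays, 3.06-fold lower in acute colitis (-1.61 ± 0.17, adjusted p = 1.35e-06 by limma). Synm, an intermediate filament protein, measured 7.85, 7.30, 7.20 and 6.96 in acute colitis, against 9.09, 8.96, 8.93, 8.86 and 8.82 after 1 cycle (-1.60 ± 0.18, adjusted p = 1.97e-06 by limma). Des, the muscle intermediate filament desmin, measured 10.85, 10.20, 10.03 and 9.24 in acute colitis, against 11.65, 11.66, 11.60, 11.30 and 11.54 after 1 cycle (-1.47 ± 0.20, adjusted p = 6.81e-05 by limma). In each, B2 was the highest acute array and still below every 1-cycle array, and the SD of the 1-cycle arrays was 0.11 to 0.15. The calponin Cnn1 (-1.46), the myosin heavy chain Myh11 (-1.36), Tagln (-1.12), Synpo2 (-1.24) and the calcium pump regulator Pln (-1.75, with overlap) were lower as well, as was Myl9 (-1.38), which is not in the list. So 8 of 15 smooth muscle genes were lower and 0 higher (median -1.12), and all 15 passed the adjusted p at some fold. Against control, 11 were lower in acute colitis (median -1.47) and 0 after 1 cycle (median -0.38). The count was 6 to 9 with single arrays left out and 4 within the low set, where Actg2 (-1.22, adjusted p = 0.0123), Synm and Des kept their calls. The list mean was 7.79 to 8.80 in acute arrays and 9.22 to 9.43 in 1-cycle arrays, and 9.46 to 9.92 in controls.

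Ogn and Kit were lower outside the smooth muscle list. Ogn, the small matrix proteoglycan osteoglycin, measured 8.43, 8.28, 6.74 and 7.63 in acute arrays, against 9.67, 9.91, 10.19, 9.18 and 9.36 in 1-cycle arrays (-1.89 ± 0.24, adjusted p = 2.13e-05 by limma), and its call held in every alternative. Kit, the receptor of mast cells and of the pacemaker cells of the gut wall, measured 8.79, 7.79, 7.10 and 7.45 in acute colitis, against 8.74, 8.81, 8.84, 8.82 and 8.99 after 1 cycle (-1.06 ± 0.23, adjusted p = 0.00670 by limma), with B2 among the 1-cycle arrays. It was the only 1 of 11 mast cell genes called. The Kit call was lost without B4 or C3, in the fit of 2 groups, with array weights, with the array sets as a covariate and within the low set. The mucosal mast cell proteases Mcpt1 (-1.29, adjusted p = 0.0689) and Mcpt2 (-1.49, adjusted p = 0.113) did not pass the test. Enteric neuron and glia genes had 0 of 14 members called, with Gfra2, a receptor component for neurturin, the farthest at -0.92 (adjusted p = 8.66e-05). Markers of adipose tissue, skeletal muscle, small intestine and exocrine pancreas, tissues that a piece of colon can carry along, had 0 members called (median differences of 0.08, 0.01, -0.04 and 0.03). Under 2-fold, Ckm of skeletal muscle (-0.69, adjusted p = 0.00662) and Cela1 of exocrine pancreas (-0.96, adjusted p = 0.00298 by limma) were lower without overlap. Differences above 0 were found in 5 of 8 skeletal muscle and 3 of 5 exocrine pancreas genes. The part of these tissues in the falls was not tested.

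**Figure D4:**
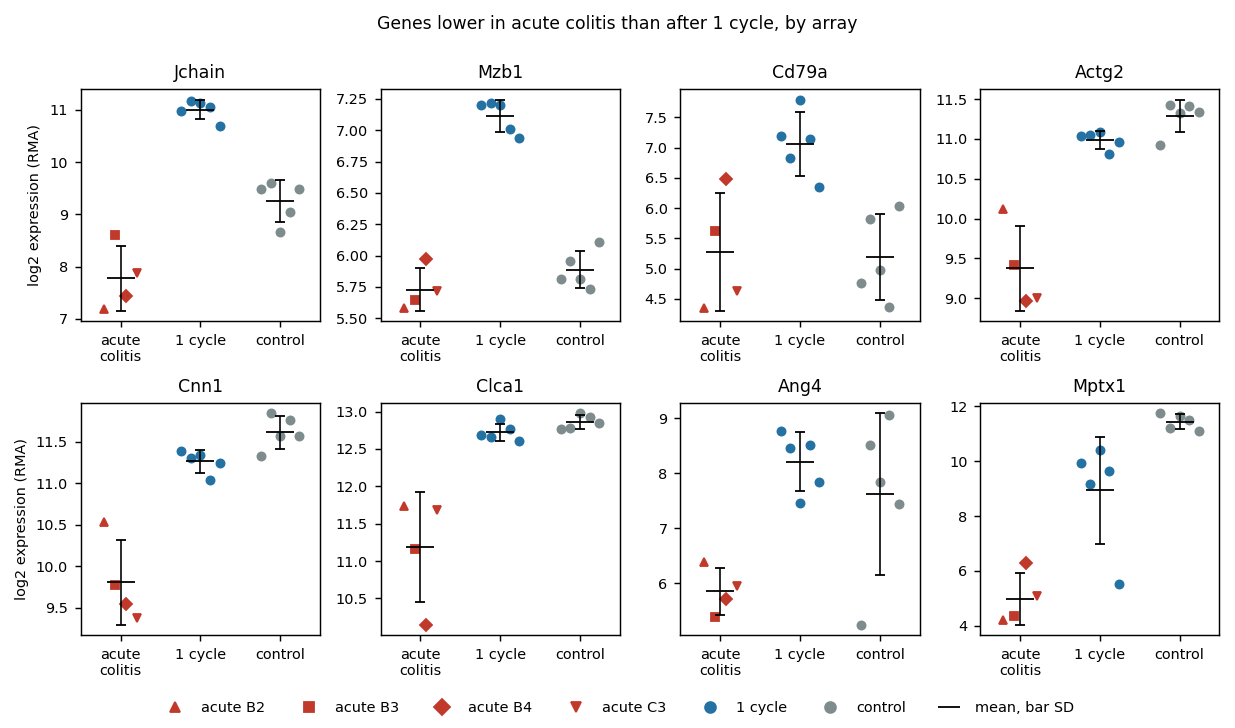
Log2 expression (RMA) of 8 genes that were lower in acute colitis than after 1 cycle, by array, with group means and SD bars (acute colitis n = 4, 1 cycle n = 5, control n = 5). Jchain, Mzb1, Actg2, Cnn1, Clca1 and Ang4 separate the acute from the 1-cycle arrays completely, and Cd79a and Mptx1 do so except for 1 array of each group.

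Goblet cell genes were lower in acute colitis to unlike degrees. Clca1, a secreted protein of the mucus, measured 11.74, 11.17, 10.15 and 11.68 in acute arrays, against 12.68, 12.66, 12.90, 12.77 and 12.61 in 1-cycle arrays (-1.54 ± 0.19, adjusted p = 1.29e-05 by limma), with no overlap and a call in every alternative. Ang4, an antimicrobial ribonuclease, measured 6.39, 5.37, 5.70 and 5.94 in acute colitis, against 8.77, 8.46, 7.47, 8.51 and 7.84 after 1 cycle (-2.36 ± 0.54, adjusted p = 0.0102 by limma). Its control arrays ranged from 5.24 to 9.06, wider than either DSS group. Atoh1, the transcription factor of the secretory lineage, was lower by 1.05 on the log2 scale (adjusted p = 0.0153), and this call was lost without B3 or B4. The main mucin Muc2 averaged 12.99 ± 0.42 in acute colitis and 13.34 ± 0.08 after 1 cycle and did not pass the test (-0.35, adjusted p = 0.159 by limma). Retnlb, which was above control in both groups, had a difference of -0.46 (adjusted p = 0.799). In all, 3 of 14 goblet cell genes were lower and 0 higher (median -0.53), with 1 within the low set. Of the 14 differences 0 were above 0, and 7 passed the adjusted p at some fold. Over all 19938 genes with 1 symbol, 11478 differences were above 0 and 1489 passed it in either direction.

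Mptx1, Tgm3 and Sycn, genes of the absorptive colonocyte list, were lowest in acute colitis, with 1 cycle between it and control. Mptx1, a mucosal pentraxin, measured 4.22, 4.36, 6.30 and 5.07 in acute arrays, against 9.95, 9.16, 10.39, 9.65 and 5.52 in 1-cycle arrays, with 11.1 to 11.7 in controls (-3.95 ± 0.73, adjusted p = 0.00175 by limma). The 1-cycle mouse K3 stood at the acute level. Tgm3, a transglutaminase, gave the same order, with 6.45 to 9.44 in acute colitis and 8.37 to 11.40 after 1 cycle, K3 again the lowest (-2.36 ± 0.64, adjusted p = 0.0301 by limma). Sycn, known as a zymogen granule protein of the pancreas, measured 10.38, 9.16, 9.85 and 10.22 in acute colitis, against 11.75, 11.54, 11.92, 12.11 and 11.01 after 1 cycle (-1.76 ± 0.22, adjusted p = 1.29e-05 by limma), and kept its call in every alternative. Of 21 absorptive colonocyte genes, 3 were thus lower and 1, Slc51b, higher (median -0.19), while the water channel Aqp8 (-1.06, adjusted p = 0.0953) and the chloride exchanger Slc26a3 (-0.55, adjusted p = 0.208) did not pass the test. Against control, 8 were lower in acute colitis and 4 after 1 cycle.

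Several secreted or digestive proteins of the epithelium followed. Nxpe2, of the neurexophilin-like family, measured 9.78, 6.47, 7.11 and 7.40 in acute arrays, against 10.27, 10.21, 10.32, 10.05 and 10.07 in 1-cycle arrays (-2.50 ± 0.38, adjusted p = 0.000206 by limma). Ctse, the aspartic protease cathepsin E, measured 7.78, 5.76, 7.44 and 8.91 in acute colitis, against 10.20, 9.84, 10.54, 10.11 and 9.06 after 1 cycle (-2.47 ± 0.37, adjusted p = 0.000169 by limma). For both, the 1-cycle mean was near control (differences of -0.39 and -0.30), and B2 for Nxpe2 and C3 for Ctse came close to the 1-cycle arrays. Clps, the lipase cofactor colipase, was lower in acute colitis (7.84, 6.71, 6.78 and 7.03) than after 1 cycle (8.98, 8.84, 9.21, 9.06 and 9.22), by 1.97 on the log2 scale, in every alternative. Sval1 (-2.30), the protease inhibitor Spink1 (-1.75) and Ceacam10 (-1.76) had no overlap either, and Ceacam10 was above control after 1 cycle (1.21). Of 25 xenobiotic-metabolising enzymes, the cytochrome Cyp2f2 (-1.69) and the alcohol dehydrogenase Adh1 (-1.17) were lower and 0 higher (median -0.51), with 0 lower without K1 and 10 without B2. Cyp2c68, a cytochrome outside that list, measured 4.91, 3.64, 4.05 and 4.58 in acute colitis, against 6.69, 6.33, 7.39, 6.09 and 5.95 after 1 cycle (-2.19 ± 0.34, adjusted p = 0.000271 by limma), with 7.87 ± 0.68 in controls. Crypt stem cell genes had 0 of 11 members called (median -0.31), and ion and water transport genes 0 of 19 (median -0.43).

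Of microRNA probe sets, that of Mir200b, a microRNA gene of epithelial cells, was called and was singled out after its values were seen. It measured 6.66, 5.51, 5.02 and 4.97 in acute arrays, against 6.92, 6.13, 6.31, 7.46 and 6.98 in 1-cycle arrays (-1.22 ± 0.37, adjusted p = 0.0481 by limma), with B2 among the 1-cycle arrays. The share of microRNA probe sets called is not given here, and this call was not followed through the alternatives. The array reads the precursor region, not the mature strand, whose 2 forms on chromosome 4 are shown with the seed, bases 2 to 8, in capitals.
miR-200b-3p: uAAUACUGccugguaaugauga
miR-200b-5p: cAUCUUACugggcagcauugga
The neighbouring Mir200a probe set had a difference of -0.32 (adjusted p = 0.346), and whether the pair differ was not tested.

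**Figure D5:**
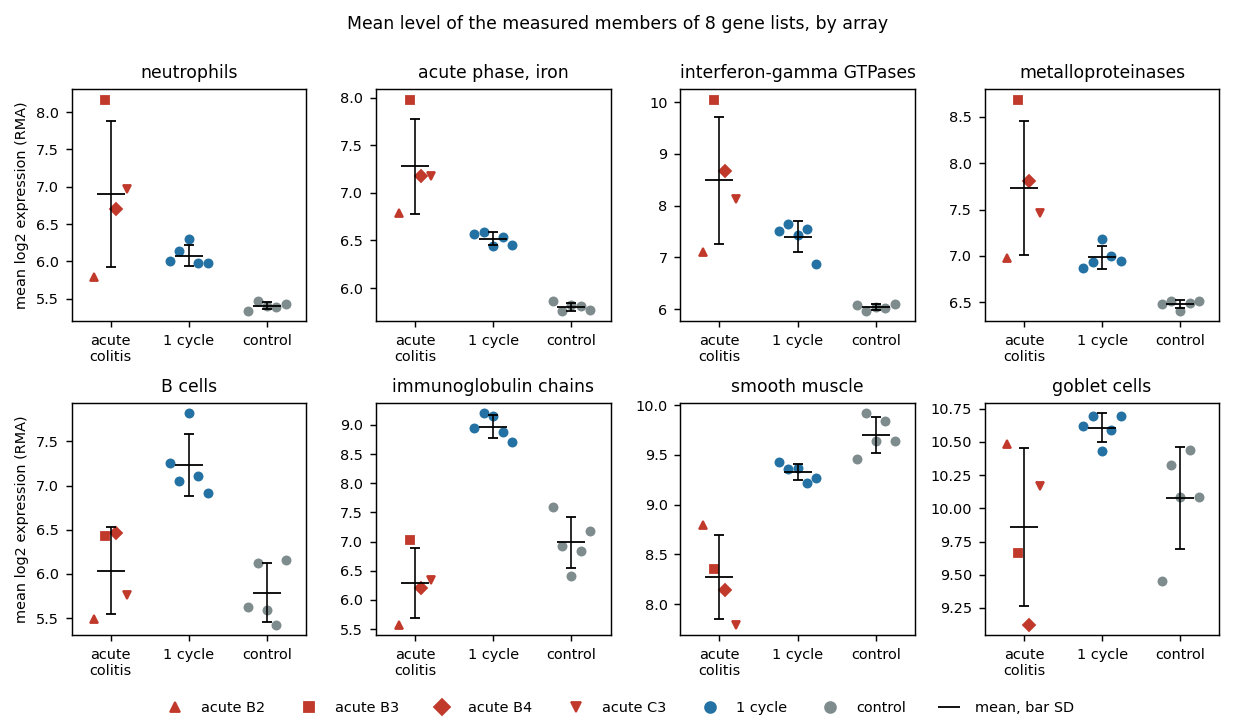
Mean log2 expression (RMA) of all measured members of 8 gene lists, by array, with group means and SD bars (acute colitis n = 4, 1 cycle n = 5, control n = 5). Immunoglobulin chains, smooth muscle and B cells separate all acute from all 1-cycle arrays, as do the acute-phase genes, whereas acute B2 lies below the 1-cycle arrays in neutrophil genes and acute B3 is the highest of all arrays in the neutrophil, acute-phase, interferon-gamma GTPase and metalloproteinase panels.

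The remaining lists held few calls. Of the 54 lists, 30 had 0 members called. Genes induced by type I interferon had 0 of 18 called between acute colitis and 1 cycle (median 0.17), beside 10 and 8 higher than control in acute colitis and after 1 cycle. MHC class I processing (0 of 11, median 0.35), complement (0 of 12, median 0.18) and leukocyte adhesion and homing (0 of 13, median -0.03) were alike in having 0 called here and members above control in both groups. Nlrp3, the sensor of an inflammasome, was the only 1 of 17 pattern recognition genes called (1.15 ± 0.30, adjusted p = 0.0237 by limma), and this call was lost without B3 or without B4. Enteroendocrine (0 of 13), tuft (0 of 7), squamous (0 of 18), tight junction (0 of 14), butyrate oxidation (0 of 13) and circadian clock (0 of 14) genes had medians between -0.32 and 0.08, and platelet (0 of 6) and red cell genes (0 of 2) lay near 0.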

How the data were processed

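The authors scanned RNA from snap frozen colon on Affymetrix Mouse Gene ST arrays, applied RMA in R 2.12.2, and the deposited unit is log2 expression. The values were used as deposited, without filter. Of 29 columns, 0 were left out. Gene symbols are those of the platform annotation (1 symbol for 21789 probe sets, several for 1621, none for 12101). Groups come from the labels, and each array is 1 mouse.

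All 6 groups were fitted together with limma 3.58.1 in R 4.3.3, after the thresholds of the study. The fit was run on simulated data with equal spread in all groups, which does not cover the wider spread of the acute arrays. In lists, the brightest probe set stands for its gene. Of 842 list entries, 757 were measured by a probe set with 1 symbol. Named genes are the 15 largest rises and falls among called genes without overlap, without immunoglobulins, up to 4 members of each list and 3 immunoglobulins; Mir200a, Mir200b, S100a8, Xbp1, Muc2, Retnlb, Reg3b, Reg3g, Aqp8, Slc26a3, Tnf, Timp1, Adamts1, Hk2, Pfkp, Mcpt1, Mcpt2, Fcer2a, Cd79b, Tnfrsf17, Cnn1, Myh11, Tagln, Synpo2 and Myl9 were added for the account of a list. Members and lists were chosen with earlier results of these data known.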

Additional observations from a re-analysis of the deposited data

Results flagged for a closer look

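In 264 groups of values (most but not all genes given here, in acute colitis, after 1 cycle and in control), a single array stood apart from the rest of its group in 16, by Dixon's criterion which chance meets in about 1 in 20 groups. In acute colitis, B3 was high for Hp (9.01, the next array 7.60) and Chil3 (8.59, next 5.19), B2 was low for Ido1 (8.70, next 10.24) and Irf4 (5.0, next 5.26), and B4 was high for Tnfrsf17 (5.28, next 4.96). After 1 cycle, K3 was low for Mptx1 (5.52, next 9.16) and Nlrp3 (4.94, next 5.11), K1 was high for Cr2 (7.52, next 6.83) and Bank1 (8.23, next 7.43), and J5 was high for Chil3 (4.22, next 3.92). In controls, A1 was low for Mmp3 (4.78) and Actg2 (10.93), A2 low for Lcn2 (5.86), L2 low for Timp1 (4.99) and high for the Adck1 probe set (5.67), and L1 high for Retnlg (5.18).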

How the results depend on the processing

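Between acute colitis and 1 cycle, the number of probe sets higher (70) depended on the setting more than the number lower (177). It was 5 in the fit of these 2 groups, 46 with the array sets as a covariate (35 of them among the 70), 5 within the low set of arrays, 251 at 1.5-fold, 1089 with no fold threshold, and 29 to 201 with single arrays left out (lowest without B3, highest without B2). The number lower was 102 in the fit of 2 groups, 68 within the low set, 456 at 1.5-fold, 949 with no fold threshold and 139 to 257 with single arrays left out. Acute colitis against control moved only with the fold (4035 higher and 4105 lower with none, 1251 and 1502 at 1.5-fold). For 1 cycle against control, 1206 were higher and 1256 lower with no fold threshold, 667 and 322 at 1.5-fold, and 31 to 118 lower with single arrays left out (without A1 and without A2). The other settings, namely a robust prior with a trend, weights per array, only brighter probe sets, only those with 1 symbol, another quantile normalization, centring, and the label letter as a random block, stayed within 1.5 times. Of the 75 named probe sets called, none turned its direction in any alternative, and 3 of 38 higher and 23 of 37 lower were called again in the fit of 2 groups, 1 and 18 within the low set, and 20 and 27 with the array sets as a covariate. Fits within the low set hold 2 acute arrays, and those of 2 groups 9 arrays, so fewer calls there also follow from fewer arrays. The joint fit assumes equal spread in all groups, but the higher probe sets had a median SD of 1.22 in acute colitis, 0.239 after 1 cycle and 0.155 in controls. How much of the drop in calls comes from this was not tested. No paired analysis was possible because each mouse belongs to 1 group and no replicate name is shared.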
